A study of Mus musculus with 10 samples.

Results

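The Tribbles pseudokinases of the mouse are Trib1, Trib2 and Trib3. They were taken by gene symbol, 3 of the 51670 gene models in the deposited table, and all 3 were among the 14727 genes with enough signal to be tested. The table holds FPKM values (fragments scaled to gene length and library depth) from hematopoietic stem cells of the bone marrow. The cells were sorted as CD48-negative and CD150-positive cells of the LSK gate, which takes cells with Sca-1 and Kit and without markers of mature lineages. All donors were wild-type C57BL/6J mice, with either tunicamycin at 2 mg/kg (5 libraries) or the solvent DMSO (5 libraries) injected into the abdominal cavity. Tunicamycin stops cells from making the sugar chain for N-linked glycosylation and so loads the endoplasmic reticulum (ER) with unfolded protein. The labels do not say how long after injection cells were sorted, how many were used, or whether every library is a separate mouse, so p-values measure the spread between these libraries only. Tunicamycin replicate 1 stands apart, since its values were deposited as whole numbers only. DMSO replicates 3 and 5 held Y-linked transcripts and little Xist, while the other 8 libraries had 28.2 to 35.6 FPKM of Xist. All 11 listed stem cell markers were detected, with summed levels of 509 to 739 FPKM in tunicamycin libraries and 361 to 513 FPKM in DMSO libraries.

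Tribbles proteins have the fold of a protein kinase but little or no catalytic activity, and act as scaffolds. Their C-terminal tail binds the ubiquitin ligase COP1, and the pseudokinase domain of Trib1 and Trib2 brings the myeloid transcription factor C/EBPα to that ligase for degradation. Forced expression of Trib1 or Trib2 in mouse marrow causes acute myeloid leukaemia, while Trib3 was without this effect. Trib3 is best known as a stress gene: under ER stress the kinase PERK phosphorylates eIF2α, which favours translation of ATF4, and ATF4 and its target CHOP (gene Ddit3) switch on Trib3, whose product in turn restrains them. Members have also been reported to bind MAP kinase kinases and AKT.

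The genes lie on different chromosomes. In GENCODE release M21 (GRCm38, the assembly also called mm10) Trib1 (ENSMUSG00000032501) spans chr15:59648350-59657099 on the plus strand. Trib2 (ENSMUSG00000020601) spans chr12:15791727-15816922 and Trib3 (ENSMUSG00000032715) chr2:152337422-152344032, both on the minus strand. The longest stretch of identical bases shared between any of their transcripts was 16 bases (Trib1 and Trib2), against 12 for Trib1 and Trib3 and 14 for Trib2 and Trib3. The promoter windows of Trib3 and Trib2 are shown, the members for which the promoter set used here held a window. Trib1 had no window and was not searched. Trib3 and Trib2 moved in opposite directions in the same libraries. Each window is given 5′ to 3′ along the gene, from 250 bases before the RefSeq start to 50 bases after it (RefSeq, GRCm38.p6). Capitals mark the only match to a motif searched.
Trib3, chr2:152344011-152344310, minus strand: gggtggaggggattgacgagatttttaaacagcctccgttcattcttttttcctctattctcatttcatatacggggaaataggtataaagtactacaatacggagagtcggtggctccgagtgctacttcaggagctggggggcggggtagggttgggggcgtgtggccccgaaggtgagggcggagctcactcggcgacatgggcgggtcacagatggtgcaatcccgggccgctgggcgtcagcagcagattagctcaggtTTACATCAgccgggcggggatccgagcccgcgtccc
Trib2, chr12:15816736-15817035, minus strand: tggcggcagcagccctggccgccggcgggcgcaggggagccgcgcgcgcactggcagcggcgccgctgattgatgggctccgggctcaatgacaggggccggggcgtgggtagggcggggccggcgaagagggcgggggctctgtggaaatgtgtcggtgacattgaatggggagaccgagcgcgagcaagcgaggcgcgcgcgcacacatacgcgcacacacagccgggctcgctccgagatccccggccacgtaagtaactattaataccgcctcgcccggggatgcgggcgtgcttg

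In the Trib3 window the letters TGATGTAA stood on the strand opposite to the gene, at chr2:152344039-152344046, bases 15 to 22 after the RefSeq start and 7 bases before the start in GENCODE. They match TGATGNAA, the composite element that dimers of a C/EBP and an ATF factor bind in stress genes. Of the 32851 RefSeq promoter windows of the same length, 3.97% held this motif on either strand. The Trib2 window had no match to it. Neither window had a match on either strand to the cyclic AMP response element TGACGTCA (1.79% of windows), to TGACGTG, the core of the unfolded protein response element, which shares its first letters with the cyclic AMP response element (2.01%), to the RBPJ site TGGGAA (25.6%), or to the ER stress response element, CCAAT and CCACG with 9 bases between (0.119%). GC content was 58.3% in the Trib3 window and 71.0% in the Trib2 window, with a median of 52.7% over all windows. These matches are descriptions of the letters, and binding of a factor was not measured.

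Trib3 was much higher after tunicamycin in every library. Its level was 62, 68.9, 51.8, 43.0 and 66.5 FPKM in tunicamycin replicates 1 to 5, against 3.32, 4.98, 5.64, 4.83 and 4.92 FPKM in DMSO replicates 1 to 5. The lowest treated library was far above the highest DMSO library, so the groups did not overlap. The means were 58.4 ± 10.8 FPKM in tunicamycin libraries and 4.74 ± 0.856 FPKM in DMSO libraries (SD, n = 5 each), a 12.3-fold difference. On the log2(FPKM + 1) scale used for all tests the change was 3.37 ± 0.15 (SE; 95% interval 3.04 to 3.69), with an adjusted p of 7.14e-08 in limma. The exact two-sided permutation test over libraries gave p = 0.00794, the smallest that 252 assignments allow. Trib3 was 17th of the 14727 tested genes by size of rise. Its mean was above that of 92.7% of tested genes in tunicamycin libraries and of 43.8% in DMSO libraries.

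Trib2 was lower after tunicamycin in every library. It had 3, 3.23, 2.84, 3.43 and 3.61 FPKM in tunicamycin replicates 1 to 5, against 8.05, 6.47, 7.0, 5.87 and 8.27 FPKM in DMSO replicates 1 to 5. Again the groups did not overlap, and the treated values lay closer together. The means were 3.22 ± 0.313 FPKM in tunicamycin libraries and 7.13 ± 1.02 FPKM in DMSO libraries (SD, n = 5 each), so that the level in DMSO libraries was 2.21-fold higher. The log2 change was -0.94 ± 0.12 (SE; 95% interval -1.19 to -0.69) (adjusted p 6.32e-05, limma), and the exact permutation p was again 0.00794. Of the tested genes 3.73% fell more. Trib2 stood above 28.5% of tested genes in tunicamycin libraries and above 53.9% in DMSO libraries. In RNA from bulk cells, fewer cells that express a gene and less of its RNA per cell cannot be told apart.

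Trib1 rose by less than Trib3, and its groups overlapped. It had 4, 5.76, 4.27, 4.75 and 3.50 FPKM in tunicamycin replicates 1 to 5, against 2.11, 3.96, 2.70, 2.94 and 1.45 FPKM in DMSO replicates 1 to 5. DMSO replicate 2 lay above tunicamycin replicate 5. The spread in DMSO libraries was wide (SD of 35.6% of the mean). The means were 4.46 ± 0.857 FPKM in tunicamycin libraries and 2.63 ± 0.938 FPKM in DMSO libraries (SD, n = 5 each), a 1.69-fold difference. The log2 change was 0.61 ± 0.18 (SE; 95% interval 0.21 to 1.01) (adjusted p 0.0163, limma), with an exact permutation p of 0.0159. Of the tested genes 19.3% rose more. The call of Trib1 was lost in 4 of 19 alternatives, among them the comparison restricted to libraries with Xist (0.46, adjusted p 0.0884 in limma), which leaves out DMSO replicates 3 and 5.

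**Figure D1:**
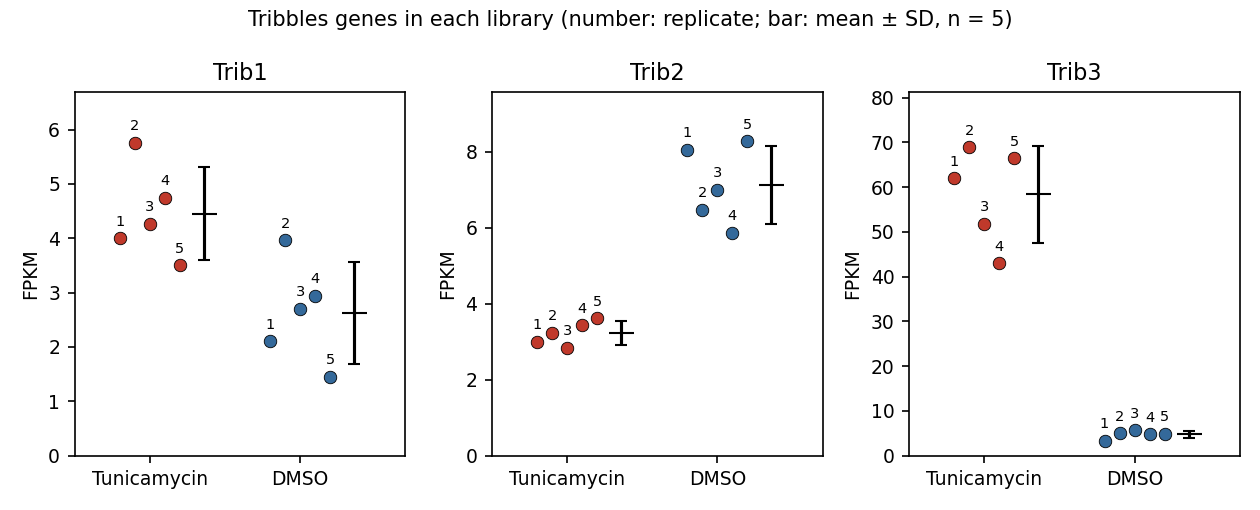
FPKM (vertical axes, each from 0) of Trib1, Trib2 and Trib3 in the 5 tunicamycin libraries (left in each panel) and the 5 DMSO libraries (right). Numbers beside points are replicates, and the bar gives mean ± SD (n = 5). Trib3 lay at 43.0 to 68.9 FPKM in tunicamycin libraries and 3.32 to 5.64 FPKM in DMSO libraries, Trib2 was lower in all tunicamycin libraries, and Trib1 overlapped.

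Against the background of the table, a call was common. Of the 14727 tested genes 45.3% passed the adjusted p of 0.05 in limma, 29.9% as higher and 15.4% as lower after tunicamycin, and the median log2 change of all tested genes was 0.18. Groups without overlap were found for 19.2% of tested genes in the higher direction and 11% in the lower direction. All 3 Tribbles genes passed, Trib3 and Trib1 as higher and Trib2 as lower. At an unadjusted p under 0.05, 52.5% of tested genes passed.

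**Figure D2:**
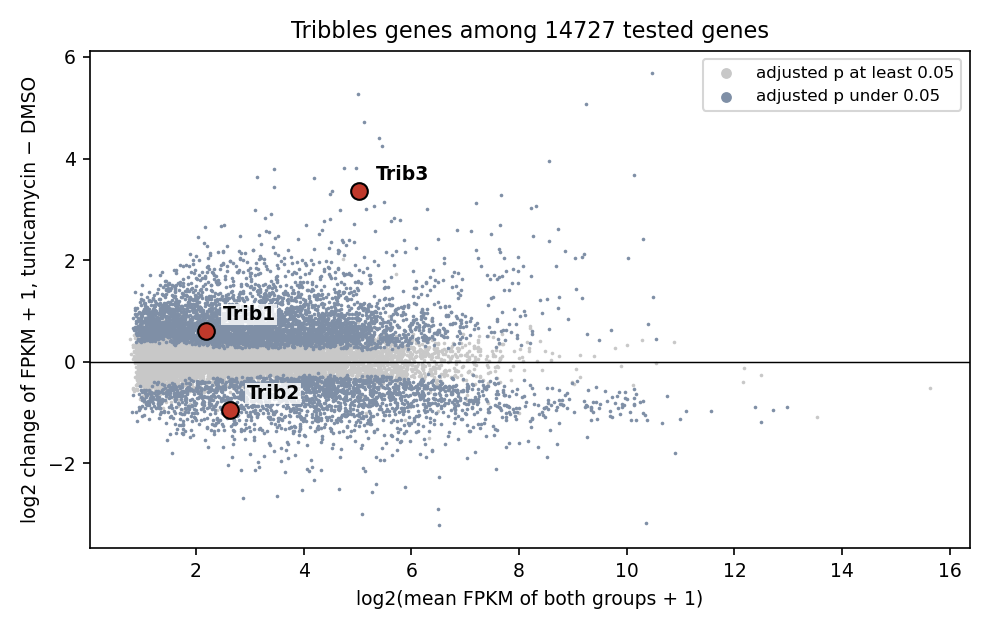
Log2 change of FPKM + 1 in tunicamycin against DMSO libraries (vertical axis) over the log2 of the mean level plus 1 (horizontal axis) for 14727 tested genes, n = 5 libraries per group. Grey points missed and blue points passed the adjusted p of 0.05. Trib3 at 3.37 stands near the top edge of the cloud, Trib1 at 0.61 and Trib2 at -0.94 stand inside it.

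The order of the family by level turned over. In all 5 DMSO libraries it ran Trib2, Trib3, Trib1 from high to low. In tunicamycin libraries Trib3 was highest in all 5, and Trib1 was above Trib2 in 4 of 5, the exception being tunicamycin replicate 5 with 3.50 FPKM of Trib1 and 3.61 FPKM of Trib2. Summed FPKM of the family was 66.1 ± 10.9 in tunicamycin libraries and 14.5 ± 0.913 in DMSO libraries (SD, n = 5 each). Trib3 made up 88.1% ± 2.49 of this sum in tunicamycin libraries (84.0% to 90.3%) and 32.5% ± 4.75 in DMSO libraries (24.6% to 36.8%). The share of Trib2 was 4.99% ± 1.01 in tunicamycin libraries and 49.4% ± 8.16 in DMSO libraries. That of Trib1 was 6.89% ± 1.72 in tunicamycin libraries and 18.1% ± 5.97 in DMSO libraries. Since FPKM is scaled to gene length, these are shares of molecules as far as the authors' gene lengths hold.

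Whether the genes differed from each other in their change was tested on the difference of log2(FPKM + 1) within each library. For Trib3 minus Trib2 it was 3.80 ± 0.29 in tunicamycin libraries and -0.51 ± 0.35 in DMSO libraries, a shift of 4.31. For Trib3 minus Trib1 it was 3.44 ± 0.37 in tunicamycin libraries and 0.68 ± 0.39 in DMSO libraries, a shift of 2.75. Trib1 and Trib2, the members that act on C/EBPα, also parted. Trib1 minus Trib2 was 0.36 ± 0.26 in tunicamycin libraries, where tunicamycin replicate 5 lay at -0.03, and -1.19 ± 0.54 in DMSO libraries, a shift of 1.55. In each of these pairs the groups did not overlap. Each gave an exact two-sided permutation p of 0.00794, also after Benjamini-Hochberg adjustment over the 5 pairs compared, the smallest the design allows. For Trib3 minus Trib2 that outcome was fixed beforehand, since Trib3 rose and Trib2 fell, both without overlap, so the test adds nothing there. It was also fixed for Trib3 minus Trib1 and for Trib1 minus Trib2. There the range of each gene in each group already forced the split, so these p-values add nothing to the single-gene values. The ratio of Trib3 to Trib2 in FPKM was 18.2 (12.5 to 21.4) in tunicamycin libraries and 0.681 (0.412 to 0.824) in DMSO libraries.

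**Figure D3:**
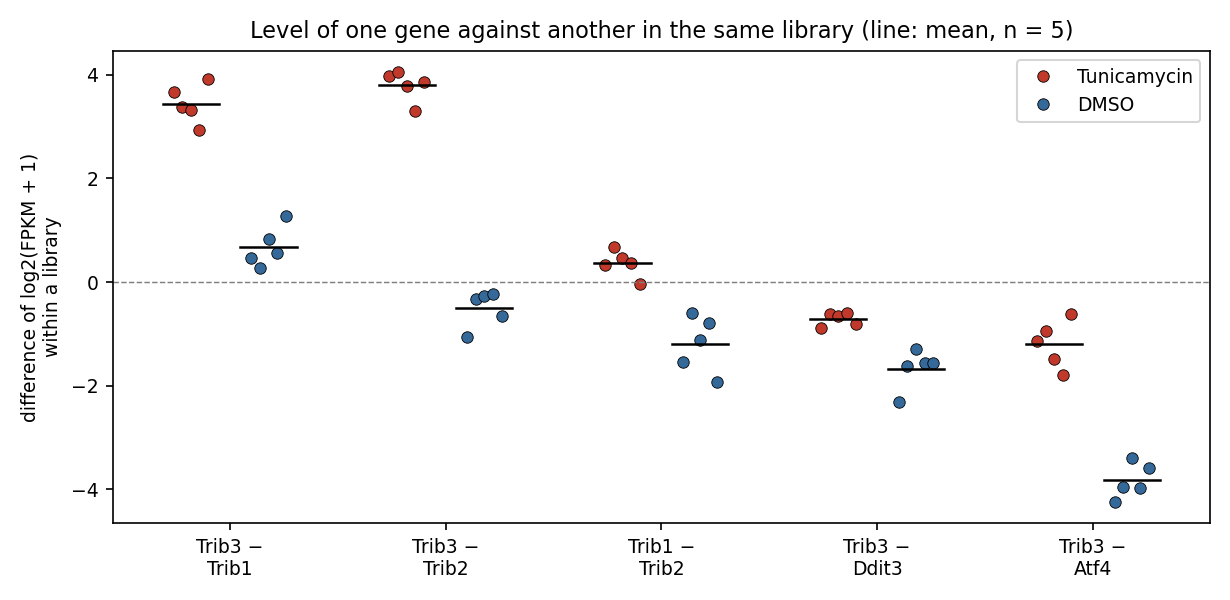
Difference of log2(FPKM + 1) between 2 genes of the same library (vertical axis) for 5 pairs (horizontal axis), tunicamycin left of DMSO in each pair. Points are the 5 libraries of a group and lines their means. In all 5 pairs every tunicamycin library lay above every DMSO library, with the widest gap for Trib3 minus Trib2, at means of 3.80 in tunicamycin libraries and -0.51 in DMSO libraries.

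Of the branch that leads to Trib3, from PERK through ATF4 to CHOP, 7 of 9 tested genes rose and 1 fell. That is 77.8% higher and 11.1% lower, against 29.9% and 15.4% of all tested genes. The median change of the branch was 1.63 on the log2 scale, against 0.18 over all tested genes. Ddit3, which encodes CHOP, had 116, 106, 82.1, 65.0 and 118 FPKM in tunicamycin replicates 1 to 5, against 20.6, 17.5, 15.3, 16.4 and 16.6 FPKM in DMSO replicates 1 to 5 (log2 change 2.40, adjusted p 8.95e-07 in limma). As with Trib3, tunicamycin replicate 4 was the lowest treated library and all treated libraries lay above all DMSO libraries. Atf4 had 138, 134, 147, 153 and 102 FPKM in tunicamycin replicates 1 to 5, against 80.8, 91.5, 69.0, 90.3 and 69.6 FPKM in DMSO replicates 1 to 5 (log2 change 0.74, adjusted p 0.000758). Here tunicamycin replicate 5 was the lowest treated library, one of the higher ones for Trib3. ATF4 is controlled largely at translation, which FPKM does not measure.

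Trib3 moved further than either of these upstream genes. Trib3 minus Ddit3 on the log2(FPKM + 1) scale was -0.71 ± 0.13 in tunicamycin libraries and -1.68 ± 0.38 in DMSO libraries, a shift of 0.97. Trib3 minus Atf4 was -1.20 ± 0.46 in tunicamycin libraries and -3.83 ± 0.34 in DMSO libraries, a shift of 2.63. Both gave an exact permutation p of 0.00794 (n = 5 each, adjusted over the same 5 pairs). For Trib3 minus Atf4 the ranges of the single genes had already fixed that outcome, so the test adds nothing there. For Trib3 minus Ddit3 they had not. In FPKM, Trib3 reached 0.609 ± 0.0558 of the Ddit3 level in tunicamycin libraries and 0.281 ± 0.0749 in DMSO libraries.

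The other genes of the branch that rose were Atf3, a factor of the ATF family induced by stress (18.8 ± 13.7 FPKM in tunicamycin libraries, 2.27 ± 1.6 FPKM in DMSO libraries, log2 change 2.47), and Nupr1, a small stress-induced nuclear protein (25.0 ± 7.46 FPKM in tunicamycin libraries, 5.90 ± 1.55 FPKM in DMSO libraries, log2 change 1.90). Atf3 spread widely, from 7.06 to 40 FPKM in tunicamycin libraries. Ppp1r15a, which encodes the phosphatase subunit GADD34 that removes the phosphate from eIF2α, had 243.7 ± 34.5 FPKM in tunicamycin libraries and 67.5 ± 22.6 FPKM in DMSO libraries. Eif2ak3, which encodes PERK, had 3.42 ± 0.759 FPKM in tunicamycin libraries and 1.62 ± 0.140 FPKM in DMSO libraries (log2 change 0.74). Cebpb, which encodes a partner of CHOP and ATF4, rose by 1.63. Eif2s1, which encodes eIF2α, fell by 0.70 on the log2 scale (36.2 ± 5.92 FPKM in tunicamycin libraries, 60.1 ± 13 FPKM in DMSO libraries, adjusted p 0.00240 in limma). Cebpg, another C/EBP partner of ATF4, had a log2 change of -0.03 with an adjusted p of 0.938.

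Among listed targets of ATF4 and CHOP other than Trib3, 13 of 14 were tested, 8 rose and 3 fell (median 1.11 on the log2 scale). That is 61.5% higher and 23.1% lower, against 29.9% and 15.4% of all tested genes. On the log2(FPKM + 1) scale, which understates low genes, the largest rises were those of Gdf15, a secreted stress cytokine (82.1 ± 43.6 FPKM in tunicamycin libraries, 3.07 ± 1.45 FPKM in DMSO libraries, log2 change 4.24), and Ddit4, an inhibitor of mTORC1 (24.2 ± 10.9 FPKM in tunicamycin libraries, 3.57 ± 1.43 FPKM in DMSO libraries, log2 change 2.41). Chac1, an enzyme that breaks down glutathione, had 6.34 ± 0.849 FPKM in tunicamycin libraries and 0.471 ± 0.289 FPKM in DMSO libraries (log2 change 2.33), a larger fold of means (13.4) than that of Ddit4 (6.78). The genes that fell make amino acids: Asns, asparagine synthetase, by 1.52, and Phgdh and Psat1 of serine synthesis by 0.60 and 0.57 on the log2 scale. These 3 and Chac1 were named after their values were seen. Asns had 27.4 to 59 FPKM in tunicamycin libraries and 78.3 to 151 FPKM in DMSO libraries, without overlap. Ero1l, an ER oxidase, had a log2 change of 0.12 with an adjusted p of 0.473, and its sign turned under quantile normalization and equal medians.

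Of the 7 genes of COP1 and its CUL4 complex, the ligase that Tribbles proteins recruit, 1 rose and 2 fell (median -0.24 on the log2 scale), or 14.3% and 28.6%, against 29.9% and 15.4% of all tested genes. Cop1 itself, the E3 ligase that the Tribbles tail binds, had 3.62 ± 0.763 FPKM in tunicamycin libraries and 3.96 ± 0.917 FPKM in DMSO libraries (log2 change -0.10, adjusted p 0.646 in limma). Det1, the adaptor beside COP1, had 8.93 ± 1.67 FPKM in tunicamycin libraries and 10.6 ± 0.460 FPKM in DMSO libraries (adjusted p 0.118). Dda1, a small subunit of the complex, rose by 0.62. The adaptor Ddb1 fell by 0.47 and the scaffold Cul4a by 0.50, both without overlap between groups. The other scaffold, Cul4b, had a log2 change of 0.06 and the RING protein Rbx1 one of -0.26, and neither passed. Without tunicamycin replicate 5 the number of genes that fell was 4, where 2510 of 14172 tested genes were called lower.

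Of the listed COP1 substrates 10 of 11 were tested and 8 rose (median 0.82 on the log2 scale) and none fell. That is 80.0% higher and 0.0% lower, against 29.9% and 15.4% of all tested genes. Cebpa, which encodes the C/EBPα that Trib1 and Trib2 bring to COP1, had 3, 2.92, 1.92, 1.57 and 3.21 FPKM in tunicamycin replicates 1 to 5, against 0.824, 1.16, 1.08, 0.869 and 0.432 FPKM in DMSO replicates 1 to 5. The groups did not overlap, and the log2 change was 0.90 (adjusted p 0.00180 in limma). Cebpb had 4.15 ± 1.51 FPKM in tunicamycin libraries and 0.628 ± 0.256 FPKM in DMSO libraries (log2 change 1.63). Jun, a subunit of AP-1, had 325.4 ± 43.3 FPKM in tunicamycin libraries and 122.2 ± 23.2 FPKM in DMSO libraries (log2 change 1.42). The others that rose were Ets1, Ets2, Etv1, Etv5 and Crtc2, by 0.49 to 1.06, and Mta1, a subunit of a chromatin remodelling complex, had a log2 change of 0.37 with an adjusted p of 0.182. Acaca, the acetyl-CoA carboxylase reported as a Trib3 and COP1 substrate in fat cells, had 2.37 ± 0.311 FPKM in tunicamycin libraries and 3.17 ± 0.451 FPKM in DMSO libraries (log2 change -0.30, adjusted p 0.0642), and without tunicamycin replicate 5 the count of substrates that fell was 1. Without tunicamycin replicate 5, 2510 of 14172 tested genes were called lower. These are RNA levels, and the proteins were not measured.

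**Figure D4:**
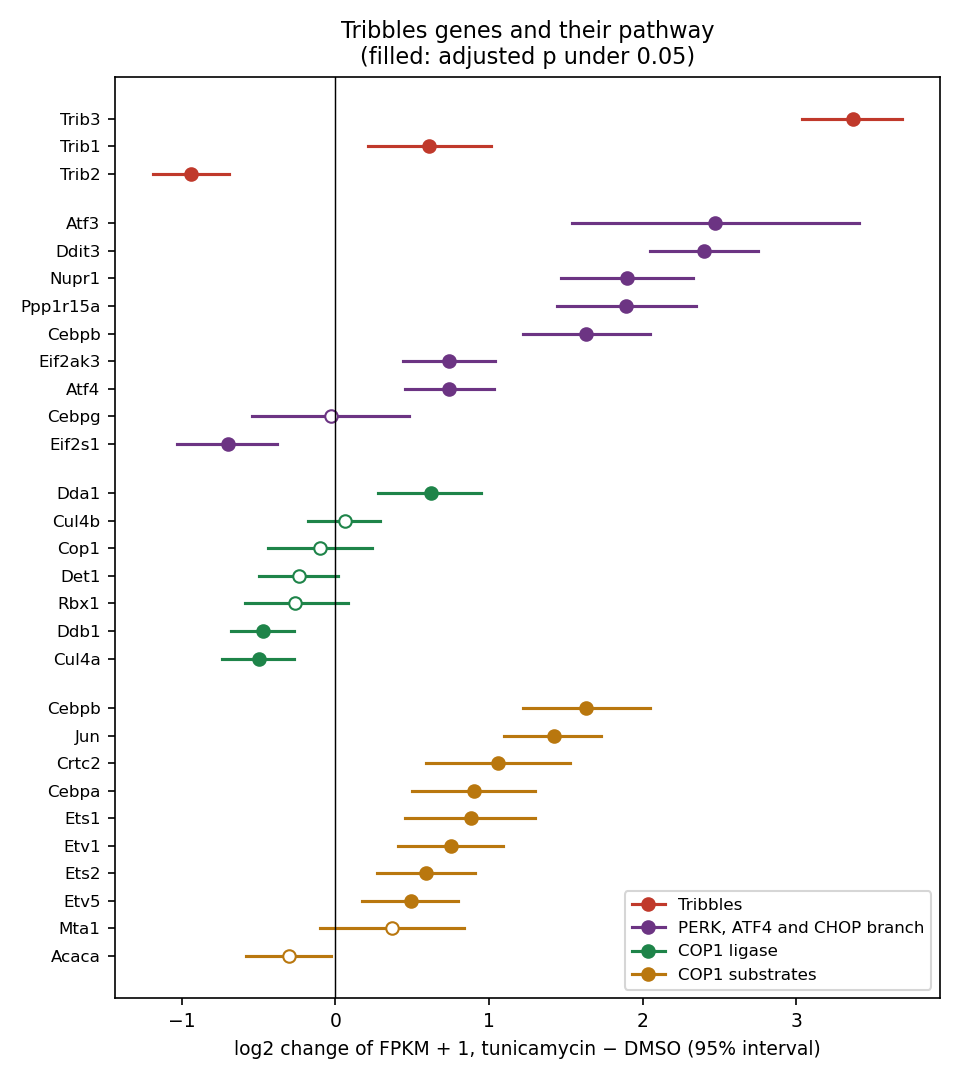
Log2 change of FPKM + 1 in tunicamycin against DMSO libraries (horizontal axis) with its 95% interval for the Tribbles genes and, in descending order, the tested genes of the PERK branch, the COP1 ligase and the COP1 substrates (n = 5 per group). Filled points passed the adjusted p of 0.05. Trib3 at 3.37 lies to the right of all others shown, and Trib2 at -0.94 to the left of all others shown.

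The 11 MAP kinase genes with which Tribbles proteins have been linked gave 6 rises and 1 fall (median 0.36 on the log2 scale). That is 54.55% higher and 9.09% lower, against 29.9% and 15.4% of all tested genes. The largest were those of Map3k11 (17.6 ± 2.16 FPKM in tunicamycin libraries, 8.89 ± 1.68 FPKM in DMSO libraries, log2 change 0.92) and Map2k7 (0.79), kinases above JNK. Map2k4, another kinase above JNK, had a log2 change of 0.00 with an adjusted p of 0.988. Without tunicamycin replicate 2 the rises were 3, and among libraries with Xist there was no fall. In the AKT and FOXO list 9 of 10 genes were tested, 5 rose (55.6%, against the same 29.9%) and none fell, with a median of 0.33. Akt1, a kinase of survival and growth signalling, rose by 0.43, while Pdpk1, the kinase that activates AKT, had a log2 change of -0.00 (adjusted p 0.986). That count fell to 2 without tunicamycin replicate 2 or 3, and to 3 without tunicamycin replicate 4 or any DMSO replicate. Among libraries with Xist it was 1. Calls over the whole table fell as well. Called higher were 3294 of 14198 tested genes without tunicamycin replicate 2, 3566 of 14161 without replicate 3 and 3739 of 14067 without replicate 4. Without 1 DMSO replicate they were 3674 to 4129. Among libraries with Xist, 3130 of 14157 were called higher and 1614 lower, against 4403 and 2261 of 14727 with all libraries.

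Of the genes reported to act on Trib2 expression in blood cells or leukaemia, 8 of 9 were tested, 3 rose and 1 fell (median 0.46 on the log2 scale). These shares, 37.5% higher and 12.5% lower, lie near those of all tested genes, 29.9% and 15.4%. Spi1, which encodes the myeloid factor PU.1, had 100.5 ± 24.2 FPKM in tunicamycin libraries and 33.7 ± 11.9 FPKM in DMSO libraries (log2 change 1.59). Cebpa and Notch1 were the others that rose, Notch1 by 0.83. E2f1, a cell cycle factor, fell by 0.50 (4.63 ± 0.630 FPKM in tunicamycin libraries, 7.06 ± 1.57 FPKM in DMSO libraries). Tal1, a factor of stem and erythroid cells, had a log2 change of -0.11 (adjusted p 0.373). Without tunicamycin replicate 1 the count of rises was 6, and among libraries with Xist none fell. Calls over the whole table moved too. Without tunicamycin replicate 1, 5841 of 14313 tested genes were called higher, against 4403 of 14727 with all libraries. Among libraries with Xist 1614 of 14157 were called lower, against 2261 of 14727.

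Of 11 myeloid genes that depend on C/EBP factors, 4 rose and none fell (median 0.45 on the log2 scale). That is 36.4% higher, near the 29.9% of all tested genes. They were Spi1, the GM-CSF receptor chain Csf2ra (log2 change 1.42), Il6ra (1.03) and Csf1r (0.90). Gfi1, a repressor of the granulocyte programme, had a log2 change of -0.10 with an adjusted p of 0.809. The granule enzyme genes Elane and Mpo did not pass, at log2 changes of -1.01 and -0.91 with wide spread in DMSO libraries (Elane 357.6 ± 303.4 FPKM), and without DMSO replicate 5 the count of falls was 2. Without DMSO replicate 5, 1891 of 14520 tested genes were called lower. All 8 immediate early genes rose, against 29.9% of all tested genes, with a median of 2.17. Egr1 rose by 3.12, Junb by 3.04 and Fosb by 1.62 on the log2 scale. Stk40, the pseudokinase nearest to the Tribbles family by sequence, had 3.94 ± 0.744 FPKM in tunicamycin libraries and 3.05 ± 0.749 FPKM in DMSO libraries (log2 change 0.29, adjusted p 0.138).

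Genes listed as markers of other cell types moved in the same libraries, and which cells expressed them was not measured. For comparison with the counts below, 29.9% of all tested genes were called higher and 15.4% lower. Of 12 macrophage markers 11 rose, and their summed level was 1975 to 4901 FPKM in tunicamycin libraries and 721.4 to 1336 FPKM in DMSO libraries. Of 7 endothelial markers 6 rose (sums 114 to 269 FPKM in tunicamycin libraries, 67.3 to 119 FPKM in DMSO libraries), of 6 tested stromal markers of 8 listed 5 rose (222.7 to 609.7 FPKM, against 25.4 to 186 FPKM in DMSO libraries), and of 5 tested megakaryocyte markers of 6 listed 4 rose (881 to 1411 FPKM, against 216.8 to 698.5 FPKM in DMSO libraries). Erythroid markers split, with 3 of 8 higher and 5 lower (2414 to 6250 FPKM in tunicamycin libraries, 1802 to 3988 FPKM in DMSO libraries). None of 6 eosinophil markers (340.2 to 1420 FPKM in tunicamycin libraries, 254.7 to 1265 FPKM in DMSO libraries) and none of 7 neutrophil markers (310.1 to 1333 FPKM, against 300.3 to 1839 FPKM in DMSO libraries) passed. B cell markers (3 of 6 tested, 3 higher) summed to 37 to 61.2 FPKM in tunicamycin libraries and 22.8 to 31.5 FPKM in DMSO libraries, with Ms4a1 and Pax5 under 1 FPKM in every library. T and NK cell markers (3 of 7 tested, 1 higher) summed to 73.8 to 121 FPKM in tunicamycin libraries and 72.9 to 148 FPKM in DMSO libraries, with Cd3d, Cd3g and Cd8a under 1 FPKM in every library. No listed marker was at 0 in all libraries. Of the 11 stem cell markers 8 rose. Among libraries with Xist 7 macrophage and 4 stem cell markers rose, where 3130 of 14157 tested genes were called higher, against 4403 of 14727 with all libraries. Stromal counts fell to 3 without tunicamycin replicate 1 or 5 or DMSO replicate 1 or 3, and stem cell counts to 5 without tunicamycin replicate 2, 3 or 4 or DMSO replicate 5.

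The part of other cell types in the Tribbles values was not tested. Tunicamycin replicate 4 had the smallest macrophage sum of the treated libraries (1975 FPKM) and the lowest Trib3, at 43.0 FPKM. Both values lay above every DMSO library, where the macrophage sum reached 1336 FPKM and Trib3 reached 5.64 FPKM. Macrophage sums thus split the groups as Trib3 did, and leaving out 1 library does not change that. The sums of stromal, megakaryocyte and B cell markers split them too, while those of the other marker lists overlapped. Of the treated libraries, tunicamycin replicate 4 also had the smallest stromal sum (222.7 FPKM). The megakaryocyte and B cell sums were smallest in tunicamycin replicate 1. Without tunicamycin replicate 1, which had the largest macrophage sum (4901 FPKM), the log2 change was 3.34 for Trib3, -0.92 for Trib2 and 0.64 for Trib1. Among the 8 libraries with Xist the log2 change was 3.46 for Trib3 and -0.88 for Trib2 (adjusted p 2.73e-06 and 0.00164 in limma). No treated library lacked Xist, so no second comparison could be made among libraries without it.

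Genes with the most similar profile were found for each member by the root-mean-square difference of log2(FPKM + 1), centred on its mean over the 10 libraries. The 5 nearest to Trib3 were Bcl2a1a, Pla2g7, Cd86, Lgals3 and Clec4a3, at 0.205 to 0.343 against a median of 1.63 over all genes. Cd86 encodes a costimulatory ligand of antigen-presenting cells and had 79.5 ± 16.1 FPKM in tunicamycin libraries and 8.02 ± 1.54 FPKM in DMSO libraries. Lgals3 encodes galectin-3, abundant in macrophages, with 138.7 ± 32.6 FPKM in tunicamycin libraries and 16.4 ± 3.67 FPKM in DMSO libraries. The 5 nearest to Trib2 were Ndc1, Ppat, Cep76, Pnp and Zfp808, at 0.0701 to 0.0864 against a median of 0.628. Ndc1, a nuclear pore protein, had 10.3 ± 0.878 FPKM in tunicamycin libraries and 21.1 ± 2.63 FPKM in DMSO libraries, and Ppat, the first enzyme of purine synthesis, 17.4 ± 1.05 FPKM in tunicamycin libraries and 36.6 ± 4.74 FPKM in DMSO libraries. The 5 nearest to Trib1 were Tob2, Gm8995, Tnfrsf21, Trim30d and Fes, at 0.101 to 0.159 against a median of 0.458. Bcl2a1a, Pnp, Trim30d and Clec4a3 have close paralogs in the mouse, so reads may have been split between copies. All 10 libraries fall in 2 groups, so a gene with a like change between them comes out near.

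Of the 7 genes next to or inside the members, 3 had enough signal to be tested. Rbck1, the nearest protein-coding gene to Trib3 at 4769 bases and on the same strand, had 84.0 ± 13.2 FPKM in tunicamycin libraries and 66.5 ± 3.03 FPKM in DMSO libraries (log2 change 0.32 ± 0.11 SE, adjusted p 0.0371 in limma). Nsmce2, at 46666 bases from Trib1, had 13.4 ± 2.54 FPKM in tunicamycin libraries and 13.9 ± 1.08 FPKM in DMSO libraries (log2 change -0.06, adjusted p 0.727). Lpin1, at 718747 bases from Trib2, had a log2 change of 0.12 (adjusted p 0.399). The microRNA gene Mir6387 lies inside Trib2 on the same strand, and its level of 0.436 ± 0.461 FPKM in tunicamycin libraries and 0.0724 ± 0.162 FPKM in DMSO libraries was too low to be tested.

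The depth behind the members was estimated. In the 9 libraries whose values keep decimals, the size of the steps between low values gave estimated depths of about 18600000 to 60400000 reads. At those depths Trib3 rested on about 3235 to 8144 reads in 4 tunicamycin libraries and 215 to 620 in DMSO libraries, Trib2 on 444 to 903 in tunicamycin libraries and 565 to 1832 in DMSO libraries, and Trib1 on 962 to 1783 in tunicamycin libraries and 314 to 1110 in DMSO libraries. The largest counting error for a member in a library was 6.82%, for Trib3 in a DMSO library, below the SD between DMSO libraries of 18.1% of the mean. These estimates use GENCODE lengths and cover counting error only.

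**Figure D5:**
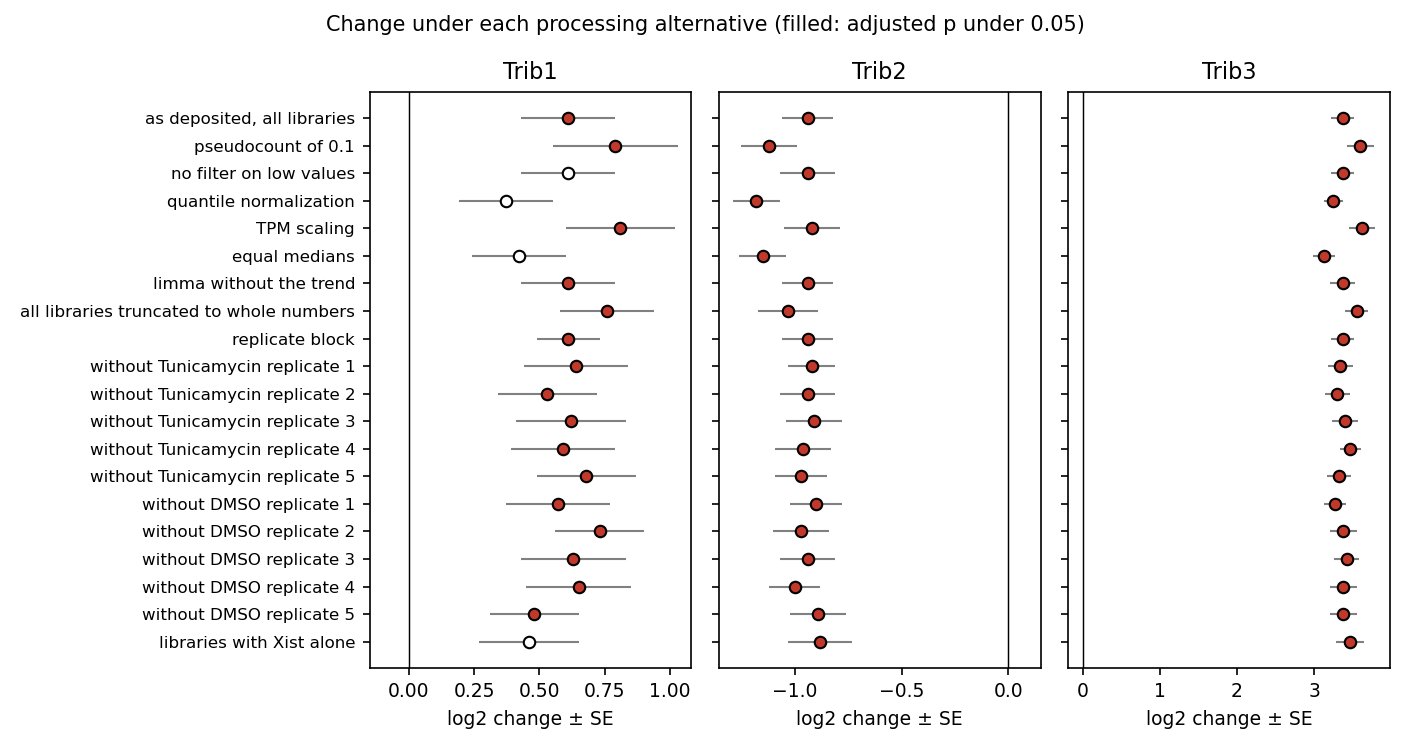
Log2 change of FPKM + 1 ± SE in tunicamycin against DMSO libraries (horizontal axes, one panel per gene) for the values as deposited and under each of 19 alternatives (rows). Filled points passed the adjusted p of 0.05. Trib3 stayed at 3.13 to 3.62 and Trib2 at -1.18 to -0.88 throughout, while Trib1 lay at 0.37 to 0.81 and missed the threshold in 4 alternatives.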

How the data were processed

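RNA-seq of 5 tunicamycin and 5 DMSO libraries was analysed from a single table of FPKM values that the authors deposited. RNA was amplified by Geo-seq and built into libraries with a Tn5 kit, per the labels' protocols. Bowtie 0.12.9, Cufflinks 2.1.1, HTSeq, DESeq2 and the build mm10 are named in the submitters' processing notes. What each tool did, and the annotation, is not given in the sources used here. In tunicamycin replicate 1 every value is a whole number, and this column is treated as a deposited score on the FPKM scale; lost decimals matter most for Trib1 and Trib2. FPKM sums per library ranged from 436970 to 499251, and 13464 to 18378 gene models reached 1 FPKM. The table holds no counts, so no count test was run.

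Symbols were matched for 51389 of 51670 Ensembl identifiers through GENCODE release M21 and RefSeq. Genes with at least 1 FPKM in at least 5 of 10 libraries were tested with limma 3.58.1 (R 4.3.3; lmFit, eBayes with trend) on log2(FPKM + 1), group as only term, Benjamini-Hochberg over 14727 genes, threshold 0.05. This scale understates changes of low genes, and limma gave every adjusted p of a gene in the text. Differences between genes used exact two-sided permutation tests in Python 3.11.15 with numpy 2.4.6. The fit was tested on simulated data. Groups follow the treatment named in each title. The members and gene lists were chosen with earlier results of these data known. Named genes are the members, all tested genes of the PERK branch and the COP1 ligase, in other lists the 2 called genes with the largest change and the 1 with the largest adjusted p, and 5 nearest profiles per member; others were named after their values were seen. A gene that the rule names in the AKT and FOXO list is not reported here. The alternatives were another pseudocount (0.1), no filter, quantile normalization, TPM scaling, equal medians, no trend, truncation to whole numbers, a replicate block, leaving out each library, and libraries with Xist alone.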

Additional observations from a re-analysis of the deposited data

Results flagged for a closer look

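Among 118 groups of 5 values for the named genes, 5 held a library far from the other 4, by Dixon's criterion at 95%. Chance alone flags about 1 in 20 groups, or 5.9 here, and no Tribbles gene was among the 5. Cebpb reached 6.74 FPKM in tunicamycin replicate 2, where the next highest treated library had 4 FPKM. Eif2s1 had 46.6 FPKM in tunicamycin replicate 5, next to 35.4 FPKM. Ndc1, the gene nearest to Trib2 in profile, had 11.9 FPKM in tunicamycin replicate 5, next to 10.1 FPKM. Ddit4 had 6.07 FPKM in DMSO replicate 2, next to 3.38 FPKM. Tal1 was low in DMSO replicate 4, at 9.98 FPKM with the next lowest at 11.2 FPKM.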

How the results depend on the processing

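Trib3, Trib2 and the differences between pairs of genes kept direction and call in all alternatives run for them. With 1 library left out at a time the log2 change ranged from 3.27 to 3.47 for Trib3, from -1.0 to -0.89 for Trib2 and from 0.48 to 0.73 for Trib1. Trib1 missed the threshold without a filter on low values (0.61, adjusted p 0.0511 in limma), with quantile normalization (0.37, 0.118), with equal medians (0.42, 0.0747) and among libraries with Xist (0.46, 0.0884). The scaling sets the centre: over all genes the median was 0.18 as deposited, -0.01 with quantile normalization, 0.31 with TPM scaling and -0.04 with equal medians. Relative to that median Trib1 stood at 0.44 as deposited, and at 0.38, 0.51 and 0.45 in the same 3 alternatives. The split of all calls moved with it: 4403 genes higher and 2261 lower as deposited, 3425 higher and 3767 lower with quantile normalization, 5481 higher and 1693 lower with TPM scaling, 3037 higher and 3972 lower with equal medians. Calls in the lower direction over the pathway lists were 13 with quantile normalization and 13 with equal medians, against 8 as deposited.

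With a replicate block Trib1 was at 0.61 (adjusted p 0.00378 in limma), Trib2 at -0.94 (0.000458) and Trib3 at 3.37, with 4553 genes higher and 2248 lower. The replicate numbers share no stated animal or batch, so they were not used as pairs. Libraries of the same number correlated in their deviations at 0.02 to 0.25, 2 of 5 above 0.1, and libraries of different numbers at -0.248 to 0.208. Of the tunicamycin libraries 3 of 5 correlated best with their own number. Whether the numbers mark a shared origin cannot be told from these values. For the pair differences the block was not run, since swapping within 5 numbers cannot give p below 0.0625.

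Genes near 0 turned sign. Cebpg was at 0.09 with TPM scaling, 0.03 with truncation, 0.10 among libraries with Xist, and from -0.18 to 0.14 with 1 library left out. Pdpk1 was at 0.12 with TPM scaling, 0.03 with truncation, 0.07 with Xist, and from -0.05 to 0.06 with 1 library left out. Map2k4 was at -0.15 with quantile normalization, -0.24 with equal medians, and from -0.11 to 0.06 with 1 library left out. Ero1l (-0.11) and Cul4b (-0.17) turned with quantile normalization and equal medians. With TPM scaling Cop1 and Tal1 were at 0.00. Gfi1 was at 0.03 with Xist and from -0.25 to 0.16 with 1 library left out. The cause was not tested.

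The whole-number column, the unstated interval between injection and sorting, the unnamed gene lengths and sorted cells of unknown number limit these values, and an RNA level does not give protein or ligase activity.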
